A study of Homo sapiens with 15 samples.

Results

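ERG and 9 other genes of the ETS family of transcription factors (FLI1, ETS1, ELF1, ELF2, ELF4, GABPA, ELK3, ELK4 and ERF) were followed through 15 RNA-seq libraries of Reh, an established line of B-cell precursor leukaemia. The 10 genes were taken by name, with earlier results of these data known. They are 10 of 33367 named genes and 10 of the 28 ETS genes of the human genome, and all 10 passed the filter on low counts in both experiments. Reh is known to carry the ETV6::RUNX1 fusion gene and to have lost its normal ETV6, itself an ETS gene.

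The libraries fall into 5 groups of 3, and all cells had received doxycycline at 500 ng/ml. In the CRISPR interference experiment the cells carried a stably integrated, doxycycline-inducible dCas9-KRAB, an inactive Cas9 fused to a repressor domain. They were transduced with a fluorescent reporter vector for a guide against the ERG promoter (sgERG) or for a non-targeting guide (sgCtrl), sorted, and induced for 72 h. In the ETV6 experiment, cell populations transduced with a DoxON vector were induced for 48 h to express V5-tagged wild-type ETV6 (ETV6-WT), V5-tagged ETV6 with the R399C substitution (ETV6-R399C) or the fluorescent protein tagBFP. The guide's sequence and position were not given in the sources used here. Because the experiments differ in vector, sorting and induction time, each was analysed alone.

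ETS proteins bind DNA through a domain that reads a GGAA core. Because members share this core, they can occupy the same sites, and the family holds activators as well as repressors. ERG and FLI1 are close relatives that act in blood stem cells and in endothelium, and ETS1 is a related activator expressed in lymphocytes. ELF1, ELF2 and ELF4 form another subfamily. GABPA is the DNA-binding subunit of GA-binding protein, which acts at promoters of housekeeping and mitochondrial genes. ELK3 and ELK4 are ternary complex factors that act with serum response factor, and ERF is a repressor of the family.

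Library totals ran from 22040338 to 52481351 reads, and levels are given as TMM-scaled CPM, in which reads without a gene name are left out. Replicates of a group differed beyond counting error: chi-square over its degrees of freedom ran from 2.79 to 6.66 for 13 of 15 pairs. Library sgERG replicate 3 stood apart from the other sgERG libraries, at 14.0 and 12.3. Summed B-lineage markers were at 4481 to 5916 CPM in all libraries, with VPREB1 at 0 reads. Summed T-cell markers reached at most 2.93 CPM with CD3D at 0. Summed endothelial markers ran at 3.62 to 6.80 CPM with CDH5 and KDR at 0. Other lists off the B lineage were higher. Summed megakaryocyte markers ran at 14.0 to 58.6 CPM, where GP1BB had group means of 13.1 to 48.2. Summed stromal markers were at 38.9 CPM or more in every library. Group means were 13.4 to 51.2 CPM for COL1A1 and 23.8 to 44.0 for PDGFRB. Myeloid markers are given below. Nothing in the labels says that replicates were separate cultures, so p-values measure only the spread between these libraries.

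Upstream sequence of ERG and ELK3 is shown because the guide was directed at the ERG promoter and because ELK3, like ETS1, passed the test in all 4 comparisons. RefSeq (GRCh38.p14) entries were found for 8 of the 10 members, with 19 windows of 250 bases upstream of a start. Each is printed in the direction of transcription, with the letters GGAA and TTCC, which is GGAA on the other strand, in capitals.
ERG, chr21:38498505-38498754, reverse strand, upstream of the start cluster that held most ERG reads: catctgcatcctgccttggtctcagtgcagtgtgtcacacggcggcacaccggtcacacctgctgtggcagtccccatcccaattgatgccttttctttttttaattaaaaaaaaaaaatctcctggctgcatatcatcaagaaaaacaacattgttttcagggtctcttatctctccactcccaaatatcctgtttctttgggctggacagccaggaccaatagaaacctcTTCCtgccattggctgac
ERG, chr21:38584946-38585195, reverse strand, upstream of a distal start: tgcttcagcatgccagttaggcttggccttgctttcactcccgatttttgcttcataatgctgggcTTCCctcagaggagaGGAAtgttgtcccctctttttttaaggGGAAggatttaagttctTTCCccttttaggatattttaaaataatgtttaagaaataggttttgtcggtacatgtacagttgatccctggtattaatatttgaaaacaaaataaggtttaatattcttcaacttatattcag
ERG, chr21:38660668-38660917, reverse strand, upstream of transcript ERG-207: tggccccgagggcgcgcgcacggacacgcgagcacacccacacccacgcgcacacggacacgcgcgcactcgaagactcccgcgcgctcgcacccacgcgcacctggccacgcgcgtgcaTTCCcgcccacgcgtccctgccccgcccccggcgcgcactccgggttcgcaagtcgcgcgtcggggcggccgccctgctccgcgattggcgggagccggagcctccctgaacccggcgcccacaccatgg
ELK3, chr12:96194125-96194374, forward strand: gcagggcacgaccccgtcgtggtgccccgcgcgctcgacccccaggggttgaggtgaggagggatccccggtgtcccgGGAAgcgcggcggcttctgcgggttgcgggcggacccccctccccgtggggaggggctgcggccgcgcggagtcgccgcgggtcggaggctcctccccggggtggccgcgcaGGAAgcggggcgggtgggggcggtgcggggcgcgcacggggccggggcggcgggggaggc

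The 3 ERG windows printed differed in base composition, with 46.4%, 36.4% and 77.2% G or C in that order. They held 1, 4 and 1 GGAA cores on either strand. Another ERG window at the main cluster (chr21:38498478-38498727), not printed, had 44.8% G or C and 2 cores. The ELK3 window printed had 82.0% G or C and 2 cores, and another (chr12:96255248-96255497) had 57.2% and 6. The letters GGAA occurred on either strand in 92.7% of 34943 RefSeq windows of the same length, with a median of 3 matches, so their presence does not set these windows apart. The longer motif CCGGAAGT, searched on both strands and containing GGAA, was found in 1 window of GABPA (chr21:25734722-25734971) and 1 of ELK4 (chr1:205632012-205632261), and in 3.39% of all windows. The doubled core GGAAGGAA, which overlaps GGAA, was found in 1 window of ELF1 (chr13:40982900-40983149) and in 3.06% of all windows.

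ERG RNA fell to 20.0% of its control level when its promoter was targeted. ERG (ENSG00000157554, chromosome 21, 38380027 to 38661780, reverse strand, hg38) stood at 529.5, 527.0 and 517.5 CPM in the sgCtrl libraries and at 104.2, 109.6 and 101.5 CPM in the sgERG libraries. The groups lay far apart, and no sgERG library came near a control. The log2 fold change was -2.32 with an SE of 0.04 (edgeR adjusted p = 9.2e-10), and 35 of 13464 genes tested had a larger change in either direction. In bulk RNA a fall of this kind cannot tell fewer expressing cells from less RNA per cell.

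The fall differed between start sites of ERG (gene-level edgeR test of start-site use, unadjusted p = 4.4e-09). Annotated starts were chained into 6 clusters, and reads were summed by cluster from the estimates per transcript. The main cluster (chromosome 21, 38498442 to 38498483) took 91.9%, 92.1% and 91.5% of ERG reads with sgCtrl and 83.1%, 80.7% and 79.4% with sgERG. Its share was lower in every sgERG library, although its use relative to the rest of ERG did not pass the test (-0.18 on the log2 scale, edgeR unadjusted p = 0.0582), and its level went from 178 ± 6.06 to 34.3 ± 0.451 TPM (mean ± SD, n = 3 each). The farthest upstream cluster (38661694 to 38661780) went from 25.4 ± 0.835 to 7.47 ± 1.46 TPM, with no overlap between groups.

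A start at 38660667, used by transcript ERG-207 and 162184 bases upstream of the main cluster, gave 3.02, 3.36 and 3.27 TPM with sgCtrl and 4.57, 6.24 and 3.26 TPM with sgERG. Here the groups overlapped, and the level of ERG-207 did not pass the test (0.53 ± 0.24, edgeR adjusted p = 0.549). Relative to the rest of ERG its use rose by 2.85 on the log2 scale (edgeR start-site test, adjusted p = 2.2e-04). A cluster 86417 bases upstream (38584900 to 38584945) gave 151, 125 and 120 reads with sgCtrl and from 46 to 235 with sgERG. Its relative use rose by 2.72 (edgeR adjusted p = 0.00204), and sgERG replicate 3 held most of the sgERG reads: without that library the change was 1.80 (adjusted p = 0.0429). Without sgCtrl replicate 3 the adjusted p of this cluster was 0.0653. These 2 were the clusters of ERG that passed, in a test that called 0.128% of 25077 clusters, and without sgERG replicate 3 the farthest cluster passed as well (0.88, adjusted p = 0.0263). The exact two-sided permutation test of the read shares gave p = 0.10 for both clusters, the smallest value that 3 libraries against 3 allow. Reads are split between overlapping transcripts by estimation, and the files do not give the error of that split.

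**Figure D1:**
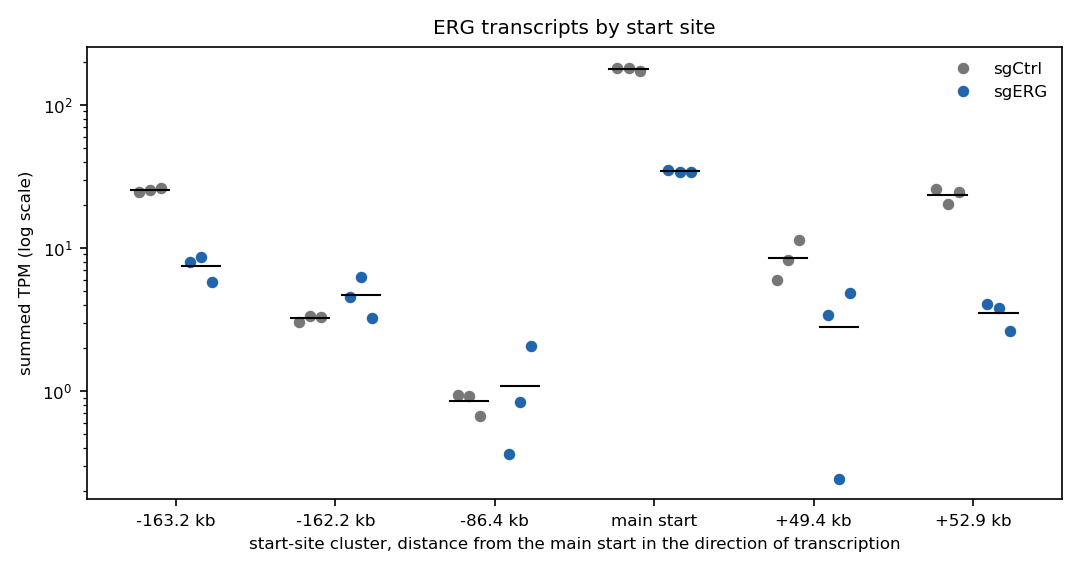
Summed TPM of ERG transcripts by start-site cluster (log scale) in the sgCtrl (grey) and sgERG (blue) libraries, 1 point per library with the group mean as a line, placed by distance from the main start. The main start falls from 178 to 34.3 TPM, whereas the points of the second cluster from the left, that of transcript ERG-207, overlap between groups.

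By transcript, ERG-201, ERG-203 and ERG-211, which begin at the main cluster, fell from 51.4 ± 1.60 to 8.65 ± 0.768, from 52.6 ± 1.63 to 9.40 ± 1.06 and from 67.31 ± 4.95 to 10.99 ± 1.17 TPM (edgeR adjusted p = 6.5e-05, 1.2e-04 and 2.2e-04). These 3 coding transcripts held most ERG RNA in the controls. ERG-204, ERG-209, ERG-212 and ERG-216 also fell, and the non-coding ERG-215 rose from 0.792 ± 0.131 to 2.58 ± 0.245 TPM (edgeR adjusted p = 0.0227). Of all transcripts tested, 0.913% were called in this comparison. The calls of ERG-204, ERG-209 and ERG-215 were the least stable: leaving out 1 library at a time gave adjusted p-values up to 0.150, 0.102 and 0.132, and ERG-215 passed in none of these 6 fits, ERG-204 in 1 and ERG-209 in 2. ERG-214, a non-coding transcript from the main cluster, measured 4.66 ± 0.739 TPM in the controls and 4.48 ± 0.910 with sgERG, and the groups overlapped.

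Among the other 9 members, ELK3 fell and FLI1 and ETS1 rose slightly with sgERG, and the remaining 6 did not pass the test. Of these 9, 2 were called higher and 1 lower, where 6.89% of all genes tested were called higher and 7.74% lower. Together with ERG, which the guide targets, 4 of 10 members were called, 2 higher and 2 lower, where 14.6% of all genes were called. The median log2 fold change of the 9 was 0.00, the same as over all genes, and their median size was 0.11, again the same as over all genes. The direction and number of calls were as given without sgERG replicate 3. Without sgCtrl replicate 1, 2 or 3 in turn, or with a replicate block, 3 of the 10 members passed. With DESeq2, or without the filter on low counts, 5 passed.

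ELK3 (ENSG00000111145, chromosome 12, 96194382 to 96269835, forward strand) stood at 176.5, 174.9 and 167.6 CPM with sgCtrl and at 97.48, 98.01 and 99.71 with sgERG. All sgERG libraries lay well below all controls. The fall to 56.9% of the control (-0.81 ± 0.04 on the log2 scale, edgeR adjusted p = 4.3e-07) was exceeded in size by 549 of 13464 genes. ELK3 is a ternary complex factor that represses serum response genes until it is phosphorylated.

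FLI1 (ENSG00000151702, chromosome 11, 128686535 to 128813267, forward strand), the closest relative of ERG, stood at 297, 286 and 297 CPM with sgCtrl and at 327, 328 and 328 with sgERG. The groups did not overlap, but the rise was small, 1.12-fold (0.16 ± 0.04 on the log2 scale, edgeR adjusted p = 0.0129). It lost its call without sgCtrl replicate 1, 2 or 3 in turn (adjusted p = 0.0525, 0.0611 and 0.0578). None of 8 FLI1 transcripts tested passed by itself in edgeR, where 0.913% of all transcripts were called. Of the 8, 2 had an unadjusted p under 0.05 (FLI1-205 and FLI1-207). The main ones, FLI1-205 and FLI1-203, went from 41.2 ± 0.387 to 47.2 ± 3.74 and from 56.3 ± 2.88 to 62.9 ± 5.61 TPM, and only the former was higher in every sgERG library.

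ETS1 (ENSG00000134954, chromosome 11, 128458761 to 128587558, reverse strand) begins 98976 bases from FLI1. It stood at 56.4, 60.5 and 57.2 CPM with sgCtrl and at 71.1, 74.8 and 65.5 with sgERG. Again no library overlapped, and the rise was 1.21-fold (0.28 ± 0.06, edgeR adjusted p = 0.00671). Both neighbours on chromosome 11 thus passed in the same direction, with smaller changes than that of ELK3.

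The members that did not pass stayed close to their control levels. ELF1 stood at 528 ± 10.6 CPM with sgCtrl and 537 ± 34.5 with sgERG, ELF2 at 52.02 ± 2.76 and 50.1 ± 4.51, and ELF4 at 46.4 ± 2.28 and 48.7 ± 0.971. ELK4 stood at 147 ± 5.68 and 136 ± 13.8 CPM, and ERF at 69.6 ± 4.21 and 69.7 ± 6.81. In these 5 genes the groups overlapped. GABPA was at 109.8, 108.8 and 114.1 CPM with sgCtrl and at 102.5, 103.6 and 89.30 with sgERG, lower in every library, with sgERG replicate 3 the lowest. Its change of -0.17 ± 0.06 missed the threshold (edgeR adjusted p = 0.0761), but DESeq2 called it (adjusted p = 0.0423), as did edgeR without the filter on low counts (adjusted p = 0.0370). GABPA overlaps ATP5PF and ELF1 overlaps WBP4 on the other strand, and the strand setting of the counting is not given in the sources used here.

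**Figure D2:**
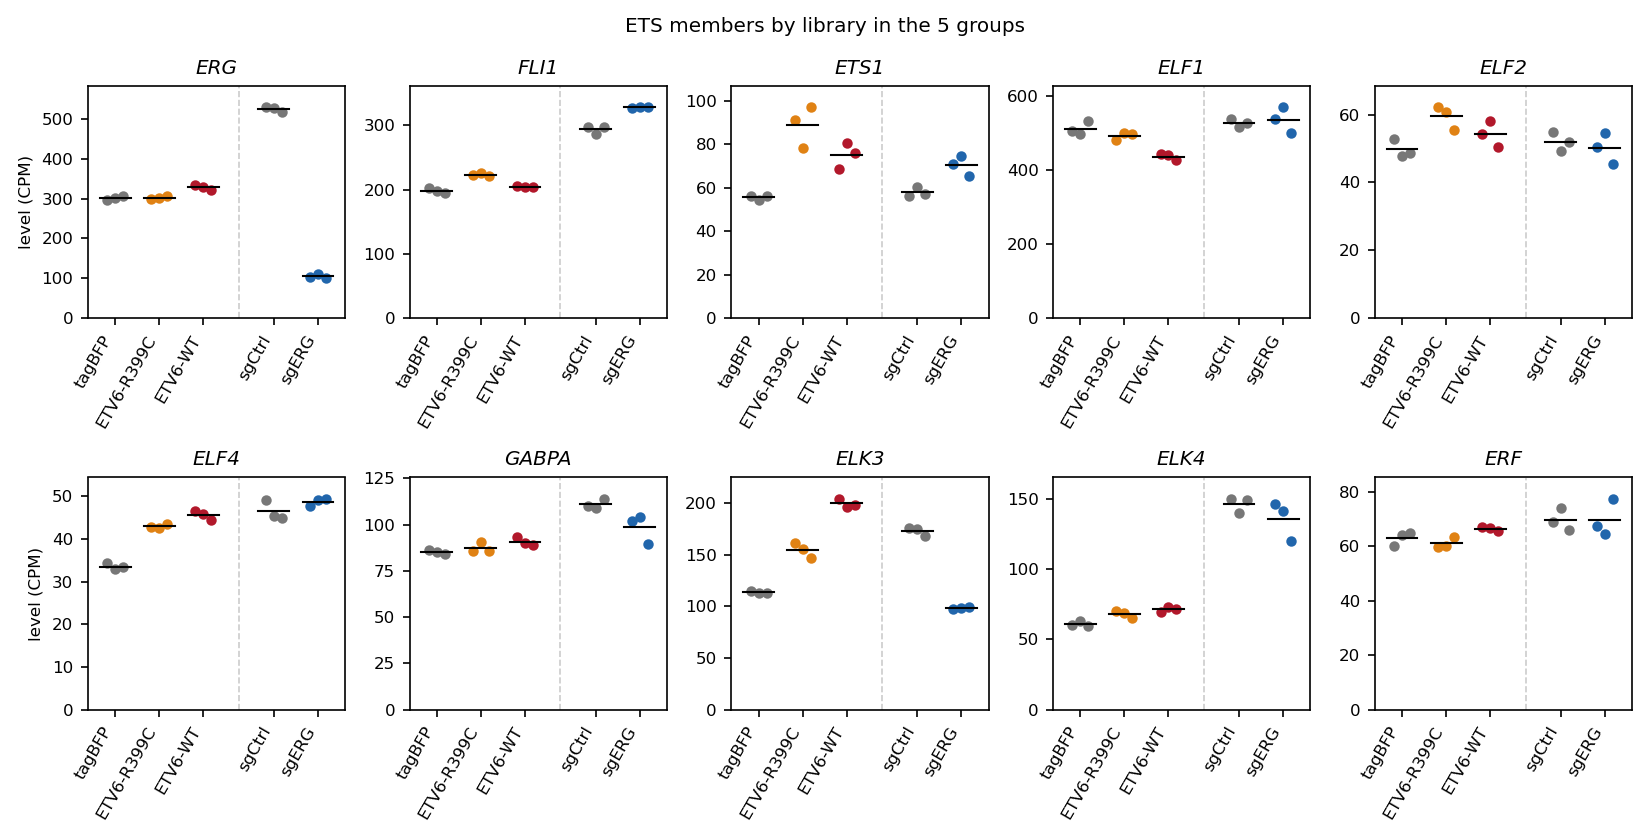
Level in CPM of the 10 members in each library, by group, with the group mean as a line and the ETV6 experiment to the left of the dashed line. ERG and ELK3 are lower in all sgERG than in all sgCtrl libraries, and ELK3 rises from tagBFP over ETV6-R399C to ETV6-WT. The experiments were scaled separately.

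Whether other ETS transcripts rose as ERG fell was read from sums of TPM, which are per length and can be added over genes. Without ERG, the members summed to 587, 590 and 578 TPM with sgCtrl and to 592, 598 and 549 TPM with sgERG. The groups overlapped, and the difference of the means was -5.46 TPM, while ERG fell by 186 TPM. No rise of the same size was measured among these 9 genes. FLI1 gained 18.04 TPM, ELF1 differed by 7.65 and ETS1 gained 5.74, while ELK3 fell by 30.3 TPM.

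Over all 28 ETS genes the sum was higher, not lower, with sgERG. It stood at 1265, 1264 and 1239 TPM with sgCtrl and at 1427, 1407 and 1391 TPM with sgERG, 112% of the control and apart in every library. On the CPM scale, which weights long transcripts more, the sum was 106.3% of the control. Most of the difference came from ETS2, a close relative of ETS1 whose gene begins 143.5 kb from ERG on chromosome 21. ETS2 stood at 524, 518 and 519 CPM with sgCtrl and at 1099, 1104 and 1121 with sgERG, a rise of 2.13-fold (1.09 ± 0.03 on the log2 scale, edgeR adjusted p = 2.4e-08). In TPM it gained 270, more than ERG lost.

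The share of ERG in all ETS transcripts went from 19.1% ± 0.150 to 3.82% ± 0.0377 and that of ETS2 from 17.1% ± 0.104 to 34.4% ± 0.455 (SD, n = 3 each). With both left out, the remaining ETS genes summed to 802 and 871 TPM, apart in every library, but to 1755 and 1763 CPM with overlap, so that difference depends on the scale. SPIB and SPI1, which encode the B-cell factor Spi-B and the myeloid and B-cell factor PU.1, gained 40.0 and 33.9 TPM. SPIB was at 15.4, 14.6 and 14.2 CPM with sgCtrl and 47.3, 43.9 and 50.5 with sgERG (1.68 ± 0.07, edgeR adjusted p = 1.4e-07), and SPI1 at 101.9, 106.7 and 101.2 and at 123.8, 128.2 and 140.8 (0.34 ± 0.05, adjusted p = 0.00157). Summed myeloid markers ran at 107.3 to 109.9 CPM with sgCtrl and 127 to 144 with sgERG, with ELANE at 0. The difference lay in MPO (74.5 and 99.8 CPM on average), while ITGAM stood at 26.6 and 26.5 and CSF1R at 7.17 and 6.15. The part of these markers in the SPI1 value was not tested.

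**Figure D3:**
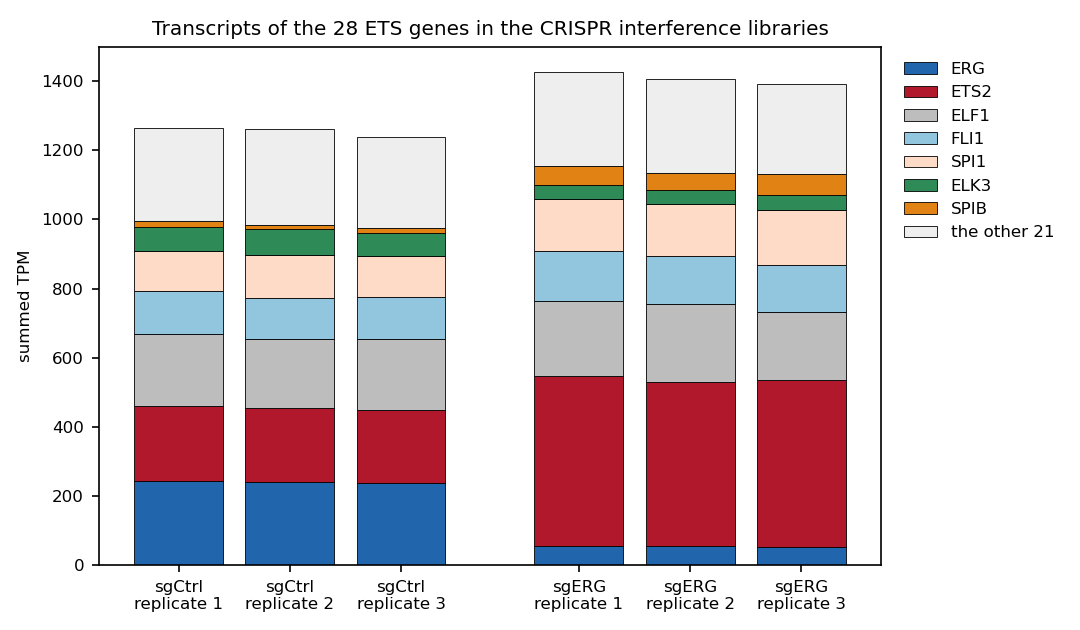
TPM of the 28 ETS genes stacked by gene in each sgCtrl and sgERG library. The ERG block shrinks from 239 to 53.8 TPM on average, the ETS2 block grows from 214 to 484, and the full bars are taller with sgERG.

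Of the 18 ETS genes outside the members, 11 could be tested in the CRISPR interference experiment. ETS2, SPIB and SPI1 were higher and ETV5, ETV6 and ETV7 lower. ETV6 stood at 13.2 ± 1.25 CPM in the controls and 6.56 ± 0.513 with sgERG (edgeR adjusted p = 7.0e-05), with reads of the fusion not separated from it. ETV5 (24.0 ± 0.987 and 19.9 ± 1.22 CPM, adjusted p = 0.0228) lost its call without sgCtrl replicate 1, sgCtrl replicate 3 or sgERG replicate 2 and with transcript length as an offset (adjusted p up to 0.925). ETV7 (5.20 ± 0.495 and 3.34 ± 0.673 CPM, adjusted p = 0.0209) lost its call in the fits without sgCtrl replicate 3, sgERG replicate 1 or sgERG replicate 2 and with the length offset (up to 0.0924). FEV, ETV1, EHF, ELF5 and SPIC had no reads in these libraries.

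Ordered by TPM, ERG was the most abundant member in the sgCtrl cells at 239 ± 2.70, above ELF1 at 205 ± 3.53 and FLI1 at 122 ± 2.84 (SD, n = 3 each). With sgERG the order began with ELF1 at 213 ± 15.5, then FLI1 at 140 ± 5.73, and ERG took the third place at 53.8 ± 1.22, in a range that overlapped that of ERF at 53.6 ± 1.77. ELF4 had the lowest mean in every group of both experiments, but its range overlapped that of ELK4 with tagBFP and with ETV6-R399C. In the ETV6 experiment ELF1 led with tagBFP (167 ± 3.07 TPM, against 135 ± 2.74 for ERG) and with ETV6-R399C (173 ± 3.30 against 143 ± 1.42), and ERG with ETV6-WT (151 ± 0.711 against 146 ± 4.37). In that experiment ELK3 moved from the fifth place with tagBFP, 37.1 ± 2.47 TPM, to the fourth with ETV6-WT, 64.1 ± 0.596, where it overlapped FLI1 at 65.0 ± 0.640.

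Several members were higher with induced ETV6. The ETV6 transcript, counted with its transgene, stood at 5.86 ± 0.327 CPM with tagBFP, 486 ± 18.1 with ETV6-WT and 373 ± 14.7 with ETV6-R399C. Against tagBFP, 7 of 10 members passed with ETV6-WT (6 higher, 1 lower), where 36.5% of all genes passed (17.6% higher, 18.9% lower). With ETV6-R399C 6 of 10 passed, all higher, where 40.9% of all genes passed (18.8% higher, 22.1% lower). The 2 comparisons share the tagBFP libraries, and the median change of the members was 0.12 and 0.16 on the log2 scale, against 0.00 over all genes in both. ETV6-WT was also compared with ETV6-R399C directly, and 6 members passed, 3 higher and 3 lower, where 21.4% of all genes passed (12.1% higher, 9.29% lower). Without ETV6-R399C replicate 1 or ETV6-WT replicate 1, 3 members passed.

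ELK3 had the largest change of a member with ETV6-WT, and ETS1 with ETV6-R399C. ELK3 stood at 115, 113 and 113 CPM with tagBFP, at 161, 155 and 147 with ETV6-R399C and at 204, 196 and 198 with ETV6-WT. The 3 groups did not overlap, and ETV6-R399C lay between. The rise was 1.75-fold with ETV6-WT (0.81 ± 0.03 on the log2 scale, edgeR adjusted p = 9.8e-09) and 1.36-fold with ETV6-R399C (0.44 ± 0.03, adjusted p = 2.1e-06), and the direct difference passed as well (0.37 ± 0.03, adjusted p = 1.8e-05).

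ETS1 stood at 56.2, 54.6 and 56.2 CPM with tagBFP, at 68.9, 80.5 and 76.1 with ETV6-WT and at 91.4, 78.6 and 97.2 with ETV6-R399C. Both ETV6 groups were above tagBFP in every library, and they overlapped each other. The rises were 1.35-fold (0.43 ± 0.07, edgeR adjusted p = 7.3e-04) and 1.60-fold (0.68 ± 0.07, adjusted p = 2.3e-05). The direct difference of -0.25 ± 0.07 passed (adjusted p = 0.0316), but not with transcript length as an offset (-0.07, adjusted p = 0.650), nor without ETV6-R399C replicate 1 or 3 or ETV6-WT replicate 1 or 3 (adjusted p from 0.0673 to 0.103).

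FLI1 rose with ETV6-R399C, from 202, 198 and 194 CPM with tagBFP to 222, 225 and 221 (0.17 ± 0.02, edgeR adjusted p = 2.1e-04). With ETV6-WT it stood at 206, 204 and 204 CPM, just above every tagBFP library, and did not pass (0.05 ± 0.02, adjusted p = 0.167). The direct difference between the ETV6 forms passed at -0.12 ± 0.02 (adjusted p = 0.00463), so FLI1 was lower with ETV6-WT than with ETV6-R399C.

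ERG itself changed little in this experiment. It stood at 296, 302 and 307 CPM with tagBFP, at 299, 301 and 306 with ETV6-R399C and at 335, 330 and 321 with ETV6-WT. The first 2 groups overlapped (0.00 ± 0.03, edgeR adjusted p = 0.981), and ETV6-WT was 1.09-fold higher than either (0.12 ± 0.03, adjusted p = 0.00320 and 0.00683). The difference from ETV6-R399C lost its call without ETV6-R399C replicate 1, ETV6-WT replicate 1 or ETV6-WT replicate 2 (adjusted p = 0.0572, 0.0729 and 0.0629). The main start cluster held 89.6% ± 0.482 of ERG reads with tagBFP, 90.6% ± 0.951 with ETV6-R399C and 90.3% ± 0.168 with ETV6-WT. The cluster 86417 bases upstream had no reads in any of these 9 libraries.

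The ELF subfamily split. ELF1 stood at 507, 498 and 534 CPM with tagBFP, 482, 501 and 498 with ETV6-R399C and 443, 441 and 427 with ETV6-WT. It fell with ETV6-WT (-0.23 ± 0.03, edgeR adjusted p = 1.5e-04), was lower there than with ETV6-R399C (-0.18 ± 0.03, adjusted p = 0.00231), and did not pass with ETV6-R399C (-0.06 ± 0.03, adjusted p = 0.186). ELF4 rose with both, from 33.5 ± 0.721 to 45.6 ± 1.14 CPM with ETV6-WT and to 42.9 ± 0.487 with ETV6-R399C (0.44 ± 0.04 and 0.36 ± 0.04, adjusted p = 2.9e-06 and 1.7e-05). ELF2 rose with ETV6-R399C, from 49.7 ± 2.64 to 59.5 ± 3.58 CPM (0.26 ± 0.06, adjusted p = 0.00500), and stood at 54.2 ± 3.77 with ETV6-WT, overlapping both. The direct test of ELF2 between the ETV6 forms missed the threshold (-0.13 ± 0.06, adjusted p = 0.148).

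Among the others, ELK4 rose with both ETV6 forms, from 61.04 ± 2.05 to 71.4 ± 1.52 CPM with ETV6-WT and 67.9 ± 2.25 with ETV6-R399C (0.23 ± 0.04 and 0.15 ± 0.04, edgeR adjusted p = 6.2e-04 and 0.00642). GABPA stood at 85.1 ± 0.958 CPM with tagBFP, 87.2 ± 2.75 with ETV6-R399C and 90.8 ± 2.09 with ETV6-WT. Its call with ETV6-WT (0.09 ± 0.03, adjusted p = 0.0446) was lost in every fit that left out 1 library and with DESeq2 (adjusted p up to 0.539 over all alternatives). ERF stood at 62.97 ± 2.38, 60.98 ± 2.05 and 66.41 ± 0.654 CPM in the same order. Its call between the ETV6 forms (0.12 ± 0.04, adjusted p = 0.0397) was kept without ETV6-R399C replicate 3 (adjusted p = 0.0214) and with a replicate block. It was lost in the other 5 fits that left out 1 library (adjusted p up to 0.206), with DESeq2, RLE scaling, no filter or the 2 groups alone (0.0539 to 0.146), and with transcript length as an offset (0.479).

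**Figure D4:**
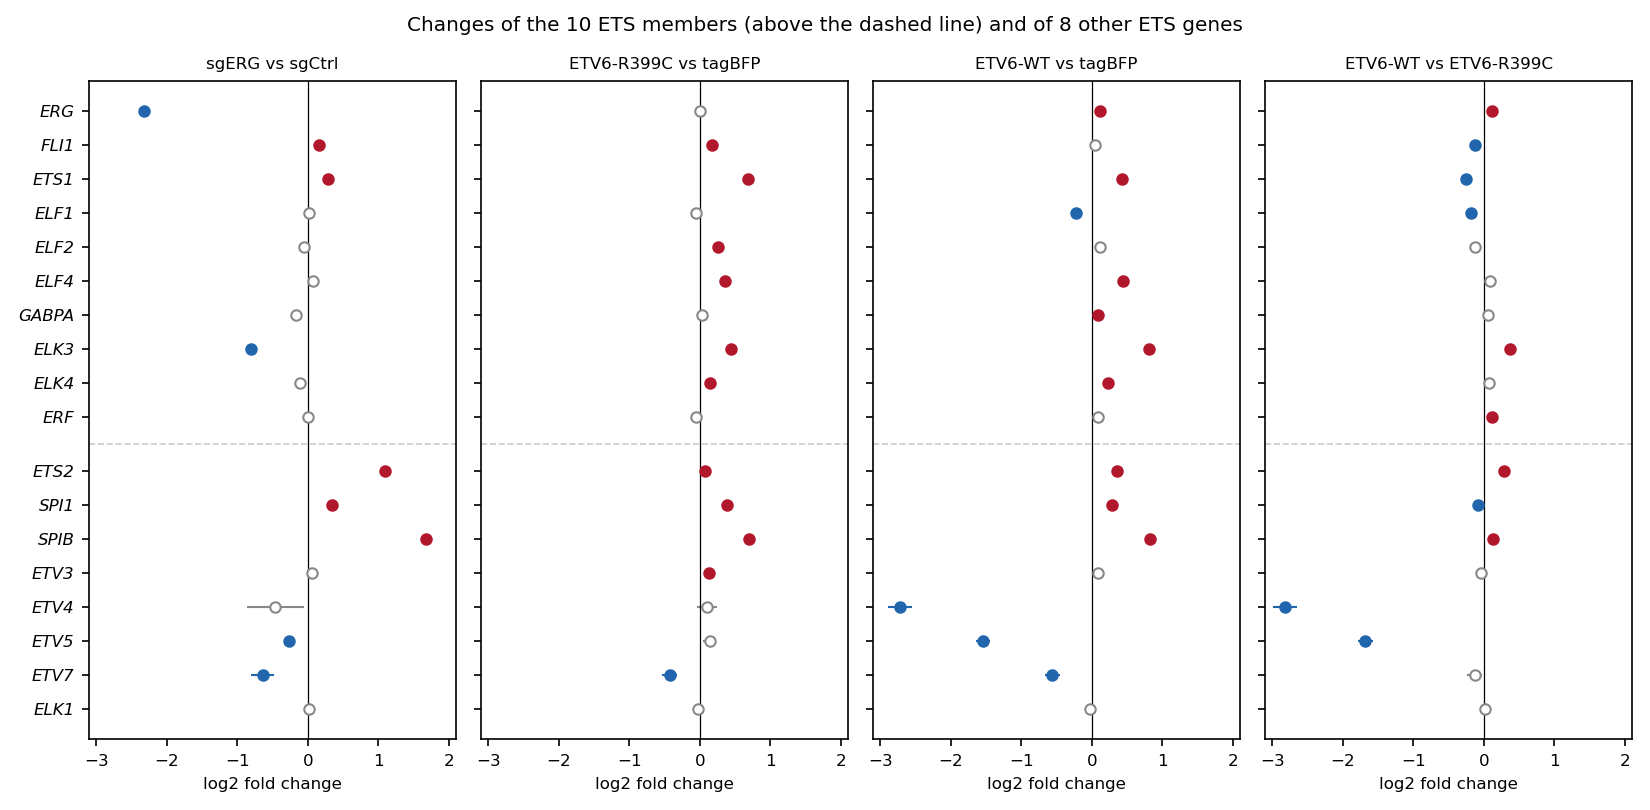
Log2 fold change with its SE for the 10 members and 8 other ETS genes in the 4 comparisons, with filled red points for genes called higher, filled blue for genes called lower and open grey for genes not called. ELK3 lies at -0.81 with sgERG and at 0.44 and 0.81 with the ETV6 forms, and ETV4 and ETV5 lie far to the left with ETV6-WT.

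Of the other 18 ETS genes, 12 could be tested in the ETV6 experiment. ETV4 and ETV5, close relatives of each other, fell with ETV6-WT and not with ETV6-R399C. ETV4 stood at 5.73, 5.55 and 5.82 CPM with tagBFP, 5.91, 6.42 and 5.97 with ETV6-R399C and 0.893, 1.08 and 0.581 with ETV6-WT, where the direct difference was -2.82 ± 0.17 (edgeR adjusted p = 1.1e-06). ETV5 stood at 15.6 ± 1.66, 17.3 ± 0.521 and 5.38 ± 0.758 CPM in that order, with a direct difference of -1.68 ± 0.11 (adjusted p = 1.2e-06). That call missed the threshold with transcript length as an offset (-1.06, adjusted p = 0.0562). DHX8 overlaps ETV4 on the other strand. ETV7 fell with both ETV6 forms (-0.56 ± 0.11 and -0.43 ± 0.10, adjusted p = 0.00144 and 0.00624).

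ETS2 rose from 614, 609 and 621 CPM with tagBFP to 785, 787 and 798 with ETV6-WT (0.36 ± 0.02, edgeR adjusted p = 4.6e-07). With ETV6-R399C it was at 636, 655 and 663 CPM, and that smaller rise (0.08 ± 0.02, adjusted p = 0.0168) was lost without ETV6-R399C replicate 2 or tagBFP replicate 2 (adjusted p = 0.0620 and 0.0591) and with transcript length as an offset (0.213). SPIB rose from 41.5 ± 1.95 to 73.6 ± 1.86 CPM with ETV6-WT and 67.3 ± 1.24 with ETV6-R399C, and SPI1 from 69.9 ± 0.516 to 85.2 ± 1.33 and 90.8 ± 2.03 (adjusted p from 2.9e-08 to 1.9e-05 for these 4 rises). Summed myeloid markers ran at 54.3 to 58.1 CPM with tagBFP, 76.2 to 79.6 with ETV6-WT and 89.1 to 93.6 with ETV6-R399C, with ELANE at 0. Most of the difference lay in MPO (38.5, 56.1 and 74.1 CPM on average in that order). CSF1R stood at 9.57, 16.9 and 10.8 CPM, and ITGAM was lower with both ETV6 forms (7.26, 3.87 and 5.54). The part of these markers in the SPI1 values was not tested.

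Of 5 FLI1 transcripts tested, 1 of low abundance, FLI1-207, was called between the ETV6 forms. FLI1-202 and FLI1-203 did not pass in that direct comparison (edgeR adjusted p = 0.0612 and 0.202). FLI1-207, a coding transcript, had 0 reads in the ETV6-WT libraries, 64 over the tagBFP libraries and 178 over the ETV6-R399C libraries. A floor of 3 reads was put in place of 0 over the ETV6-WT group. On this floor, the estimate was 17.9-fold lower than with tagBFP and 60.6-fold lower than with ETV6-R399C. Both differences passed (edgeR adjusted p = 0.0113 and 0.0134), where 4.73% and 1.36% of all transcripts were called. The floor does not cover the error of splitting reads between overlapping transcripts, which is not given. The second call was lost without ETV6-R399C replicate 1 (edgeR adjusted p up to 0.0532). Both calls were lost with a replicate block (edgeR adjusted p = 0.0588 and 0.0953). FLI1-202 had 6 reads with ETV6-WT and 97 with tagBFP (edgeR adjusted p = 0.0356). That call was kept in 1 of 6 fits that left out 1 library, the one without ETV6-WT replicate 1. It was lost without the filter on low counts and with a replicate block (edgeR adjusted p from 0.0585 to 0.105). FLI1-203, a main transcript annotated as subject to nonsense-mediated decay, rose with ETV6-R399C from 37.7 ± 1.09 to 47.6 ± 2.04 TPM (0.26 ± 0.05, adjusted p = 0.0200, 5.59% of transcripts called), a call kept only without ETV6-R399C replicate 1 when libraries were left out singly (adjusted p up to 0.0844). The main FLI1 start held 97.5% to 98.4% of FLI1 reads on average in these 3 groups.

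Set side by side, ELK3 was called in opposite directions in the experiments: -0.81 with sgERG, 0.81 with ETV6-WT and 0.44 with ETV6-R399C. ETS1 (0.28, 0.43 and 0.68) was called higher in all 3, and FLI1 (0.16, 0.05 and 0.17) was called with sgERG and ETV6-R399C. The experiments share no libraries, and the difference of their effects was not tested because they differ in vector, time and sorting.

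ERG and FLI1 are known to act in blood stem cells with RUNX1, GATA2, TAL1, LMO2 and LYL1. With sgERG, 3 of these 5 could be tested and all 3 fell, where 7.74% of all genes fell. RUNX1 went from 637, 604 and 592 CPM to 441, 446 and 432 (-0.47 ± 0.04, edgeR adjusted p = 2.3e-05), with the fusion in this line contributing reads that were not separated. LMO2, a bridging protein, went from 11.4, 11.6 and 10.9 CPM to 6.82, 6.49 and 7.51 (-0.70 ± 0.09, adjusted p = 3.5e-04), and LYL1, a helix-loop-helix factor, from 183, 195 and 178 to 149, 154 and 175 (-0.22 ± 0.06, adjusted p = 0.0424). The first 2 were apart by a wide margin and LYL1 by a narrow one. Against tagBFP all 3 rose with ETV6-R399C, where 18.8% of all genes rose (0.40 ± 0.05, 0.28 ± 0.08 and 0.20 ± 0.03 for RUNX1, LMO2 and LYL1), and RUNX1 (0.15 ± 0.05) and LYL1 (0.35 ± 0.03) rose with ETV6-WT, where 17.6% rose.

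The beta subunits of GA-binding protein changed in opposite directions with sgERG. GABPB1, which carries the activation domain of the complex, fell from 70.6 ± 1.04 to 48.4 ± 1.43 CPM (-0.54 ± 0.04, edgeR adjusted p = 1.8e-05), while GABPB2 rose from 25.6 ± 0.797 to 33.6 ± 2.18 (0.39 ± 0.06, adjusted p = 0.00217). GABPB1 rose with ETV6-WT, from 59.5 ± 1.46 to 82.3 ± 2.52 CPM (0.47 ± 0.04, adjusted p = 2.8e-06), and stood at 62.9 ± 2.57 with ETV6-R399C, where it did not pass. Of 8 nuclear genes for mitochondrial proteins and factors that GA-binding protein is known to regulate, 0 passed with sgERG in edgeR or DESeq2. In this comparison edgeR called 14.6% of all genes, and 1 of the 8 had an unadjusted p under 0.05 (TFB1M). With ETV6-WT 6 of the 8 fell and none rose, where 18.9% of all genes fell. With ETV6-R399C 6 fell, where 22.1% of all genes fell, and 1 rose, NRF1, which DESeq2 did not call. ATP5F1B, a subunit of ATP synthase, went from 1130 ± 35.5 CPM with tagBFP to 917 ± 10.9 with ETV6-WT and 871 ± 41.2 with ETV6-R399C. The median of the list was -0.21 and -0.31, against 0.00 over all genes.

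ELK3 and ELK4 act with serum response factor on immediate early genes. Of 8 such target genes, 5 rose with sgERG and none fell, where 6.89% of all genes rose, and DESeq2 called 4. The list median was 0.66 against 0.00 over all genes. EGR1, an early-response zinc finger factor, went from 82.1, 73.7 and 66.3 CPM to 177, 111 and 168 (1.04 ± 0.15, edgeR adjusted p = 0.00104), and JUNB, a subunit of AP-1, from 71.9 ± 5.94 to 130 ± 26.7 CPM (0.85 ± 0.13, adjusted p = 0.00116). All sgERG libraries were above the controls, with replicate 2 the lowest of them in both genes. FOSB, MCL1 and FOS also rose (0.60 ± 0.14, 0.21 ± 0.04 and 0.96 ± 0.28), but the libraries of FOS overlapped between groups, and DESeq2 did not call it. Without sgERG replicate 3 the count was 4, FOS being lost (edgeR adjusted p = 0.104). With ETV6-WT 1 of 7 tested targets rose (JUNB, 0.15 ± 0.04), where 17.6% of all genes rose. With ETV6-R399C 1 of 7 fell (EGR1, -0.88 ± 0.19, at 2.75 ± 0.0932 and 1.49 ± 0.342 CPM), where 22.1% of all genes fell. Of the cofactors, MRTFA rose in all 3 comparisons (0.32 ± 0.05, 0.50 ± 0.03 and 0.53 ± 0.03), while SRF stood at 122 ± 2.11 and 120 ± 9.51 CPM in the CRISPR interference experiment and fell with ETV6-WT (-0.14 ± 0.04, adjusted p = 0.0114).

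Corepressors and coactivators that ETS factors recruit did not pass with sgERG (0 of 7 in edgeR and in DESeq2), where edgeR called 14.6% of all genes. At an unadjusted p under 0.05 there were 0 as well. Without sgERG replicate 3, TLE1 was lower (-0.14, edgeR adjusted p = 0.0120). With ETV6-R399C 5 of 7 rose, among them EP300 (0.26 ± 0.05) and CREBBP (0.26 ± 0.05), and HDAC3 fell (-0.23 ± 0.04), where 18.8% of all genes rose and 22.1% fell. DESeq2 called 5 of these 6. With ETV6-WT 1 rose (NCOR1, 0.09 ± 0.03) and 1 fell (TLE1, -0.25 ± 0.03), where 17.6% of all genes rose and 18.9% fell. DESeq2 also called CREBBP. Of 6 genes for the turnover of ETS proteins, DET1, part of a ubiquitin ligase, rose with sgERG, where 6.89% of all genes rose. It went from 8.45 ± 0.163 to 10.6 ± 0.545 CPM (0.32 ± 0.08, edgeR adjusted p = 0.0206). With ETV6-R399C, where 18.8% of all genes rose and 22.1% fell, USP9X, a deubiquitinase, rose (0.21 ± 0.04). TRIM25, a ubiquitin ligase, fell there (-0.15 ± 0.03). With ETV6-WT 0 of the 6 passed in edgeR or DESeq2, where edgeR called 36.5% of all genes, and 1, USP9X, had an unadjusted p under 0.05.

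Likeness to ERG was measured as the root mean square difference of the 5 group means of log2 CPM, centred within each experiment, over 10244 genes of at least 5 CPM on average. Among the nearest protein-coding genes were PRR29 (0.25), ATP2B4 (0.332), AC027796.3 (0.335) and CIITA (0.39). The centred difference of ERG between sgCtrl and sgERG was larger than that of each of these 4. ELK3 was the nearest member, in the 62nd place at 0.524. For FLI1, whose group means vary little, SNX25, GIPC3, ZNF592, ZKSCAN3 and SMOX lay within 0.013. These distances are descriptions over 5 groups.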

How the data were processed

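RNA-seq of 15 Reh libraries was analysed. The authors deposited, per the file headers, estimated counts of reads and TPM per transcript with its length; per the submitters' processing notes, Salmon 0.11.3 and the build hg38 were used. Neither strand setting nor filter was given in the sources used here. GENCODE 29 named 90.3% of 167268 transcripts, and the others, with 6.67% to 7.56% of reads, were left out. Estimated counts were summed per gene and rounded. Salmon divides reads between transcripts that share sequence, so overlapping genes and isoforms can exchange them.

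Each comparison used the quasi-likelihood test of edgeR 4.0.16 (R 4.3.3) at 0.05. Libraries were TMM scaled, low counts were removed by filterByExpr, and p-values were adjusted by Benjamini-Hochberg over every gene, transcript or start-site cluster tested. The CRISPR interference fit held 6 libraries and the ETV6 fit 9, with a biological coefficient of variation of 6.24% and 4.95%. The SE is the log2 fold change divided by the square root of F. ERG starts were chained within 500 bases for edgeR's exon-usage test. The scripts were tested on simulated data. DESeq2 1.42.0, other scaling, no filter, a transcript length offset, a replicate block, 2 groups alone and leaving out each library were alternatives.

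Members and gene lists were chosen with earlier results of these data known, so counts over a list carry no test. Named are all 28 ETS genes, up to 4 genes of each list by p, and the 5 genes most like ERG and FLI1; further genes of a list are named where a count rests on them. Some genes are not reported here.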

Additional observations from a re-analysis of the deposited data

How the results depend on the processing

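No called change of an ETS gene reversed its direction under any alternative. Changes that were not called could differ in sign, such as that of ETV5 with ETV6-R399C against tagBFP (-0.38 to 0.23). Over the 10 members and 4 comparisons, 436 values kept their side of the threshold, 32 lost their call and 2 gained one. Over the other ETS genes 521 kept it and 31 lost their call. The median of all genes lay between -0.02 and 0.02 on the log2 scale under every alternative run. Gene-list counts without sgERG replicate 3 were an alternative chosen after seeing the data. Depth limits the rarest ETS transcripts, such as ETV4 with ETV6-WT (0.581 to 1.08 CPM) and FLI1-207, with 178 reads or fewer over a group in the ETV6 experiment.

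Genes passing numbered 1969 for sgERG against sgCtrl, and 1160 to 2302 with 1 library left out (1160 without sgCtrl replicate 1, 1162 without sgCtrl replicate 3). They numbered 5202 for ETV6-WT and 5826 for ETV6-R399C against tagBFP, with 4322 to 4813 and 4865 to 5594 when 1 library was left out, and 2913 and 3427 with a transcript length offset. For ETV6-WT against ETV6-R399C they numbered 3044 (1721 higher, 1323 lower), 1236 with the length offset and 2008 to 3110 with 1 library left out, the fewest without ETV6-R399C replicate 1 (2008, of which 878 higher and 1130 lower) and ETV6-WT replicate 2 (2010). Its split between higher and lower was 1300 and 1446 without the filter and 1400 and 1589 with the 2 groups alone. The 6 members passing there became 3 to 5 with 1 library left out, with 3 without ETV6-R399C replicate 1 or ETV6-WT replicate 1. They remained 6 with a replicate block and became 4 with the length offset.

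With 1 library left out, the 8 ERG and FLI1 transcripts called with sgERG became 5 to 7, and the ranges of calls that follow are over such fits. Against tagBFP, the 2 called with ETV6-WT became 1 to 2, and 1 without the filter, and the 1 called with ETV6-R399C became 0 to 1. The 1 called between the ETV6 forms became 0 to 2. The ERG start-site clusters called numbered 1 to 3 where 2 were called. The summed ETS level differed by 0.17 on the log2 scale in TPM, 0.16 to 0.17 with 1 library left out, and 0.09 in CPM.

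Replicate numbers are shared between groups, and the deviations of same-numbered libraries correlated at -0.25 to 0.21. With 3 libraries per group these correlations cannot settle whether the numbers pair the libraries, and the labels do not say so. With a replicate block the transcripts called numbered 3 with sgERG, 0 with ETV6-WT against tagBFP and 0 between the ETV6 forms, the start-site clusters numbered 1, and FLI1 with sgERG had an adjusted p of 0.0621. The cause of the changes under these alternatives was not tested; leaving out a library leaves fewer to fit.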

Other observations

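The control groups of the 2 experiments differed in several ETS genes. ERG stood at 302 ± 5.46 CPM with tagBFP and 525 ± 6.35 with sgCtrl, ELK4 at 61.04 ± 2.05 and 147 ± 5.68, FLI1 at 198 ± 4.12 and 293 ± 6.26, and SPIB at 41.5 ± 1.95 and 14.8 ± 0.610 (SD, n = 3 each). EGR1, an immediate early gene, stood at 2.75 ± 0.0932 and 74.0 ± 7.90 CPM. The experiments were scaled separately and differ in vector, sorting and induction time, which cannot be told apart here, and no test was made. Reads from mitochondrially encoded genes made up 0.96% to 1.42% of the ETV6 libraries and 2.58% to 3.3% of the CRISPR interference libraries, and their part in these values was not tested.

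The start-site cluster of ERG at 38584900 to 38584945 had reads in all 6 CRISPR interference libraries (46 to 235) and in none of the 9 ETV6 libraries. The start of ERG-207 had 130 to 271 reads in the former and 0 to 14 in the latter, beside main-cluster reads of 2393 to 23031 and 5575 to 8320.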
